A study of Mus musculus with 4 samples.

Results

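The regions described here are second promoters of shared genes: a protein-coding gene had one promoter region called in both mouse liver and yolk sac libraries, and a further promoter region called in 1 tissue only. Peaks of transcription initiation from 4 libraries were merged wherever they overlapped by at least 1 bp, which gave 61095 regions. A region was taken as a promoter of a protein-coding gene when it lay within 500 bp of one of that gene's transcript starts in GENCODE release 21 of the mouse annotation, which held for 16135 regions. A promoter region called in all 4 libraries, as 69.7% were, is called shared below, and 11898 genes had at least 1. Members are the other promoter regions of these genes that were called in both libraries of 1 tissue and in neither of the other. There were 1149 of them, 241 liver-only regions at 227 genes and 908 yolk-sac-only regions at 790 genes, so that 8.31% of the genes with a shared promoter had a member of either kind. The members were chosen by the peak calls of all 4 libraries. Their presence in one tissue and absence from the other is therefore the rule and not a result, and the counts are given as a description with no test.

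The libraries are PRO-seq, in which engaged RNA polymerases are made to extend their nascent RNA by a short run-on, here on isolated chromatin. All tissue came from E14.5 embryos. Females of C57BL/6J were mated with males of mixed C57BL/6J and CAST/EiJ background, chosen to carry only CAST/EiJ polymorphisms at the Dlk1/Gtl2 locus of chromosome 12. The sample labels spell the first strain C57BL/6h. Both tissues share this cross, and no genotype or treatment was compared. Each library pooled 1 tissue from 6 embryos, with 2 libraries of liver and 2 of yolk sac. The labels do not say whether the replicates came from separate pools of embryos. Each deposited list gives peak positions and a score, and holds no read counts, so that the depth of each library is unknown.

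Many mammalian genes can be started at more than one place. Alternative promoters give messages with different first exons, which can change the untranslated leader alone or the first part of the protein, and promoters inside a gene can give shortened proteins. Promoters rich in CpG dinucleotides are known to be used broadly, while CpG-poor promoters are more often restricted to a tissue. In the fetal liver most cells belong to the red cell lineage, and several genes of heme synthesis and glycolysis are known to have an erythroid promoter beside the one used in every cell. The yolk sac is an outer layer of visceral endoderm, specialised in uptake and secretion, over a mesoderm with vessels and blood.

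The sequences of 4 genes show what a shared and a second promoter can look like. They were picked as examples, after their values were seen, among the genes of the functional lists and leading members for which RefSeq holds a promoter window, from 250 bases before to 50 after the start, at both regions. All lie on the minus strand of GRCm38.p6 and are printed in the gene's direction, with each CpG in capitals. The windows of Uros are chr7:133702451-133702750 (second) and chr7:133709246-133709545 (shared). Those of Mob2 are chr7:142025910-142026209 and chr7:142060804-142061103. Those of Stat5b are chr11:100822521-100822820 and chr11:100850532-100850831. Those of Epb41 are chr4:132049029-132049328 and chr4:132075264-132075563.
Uros second, liver-only: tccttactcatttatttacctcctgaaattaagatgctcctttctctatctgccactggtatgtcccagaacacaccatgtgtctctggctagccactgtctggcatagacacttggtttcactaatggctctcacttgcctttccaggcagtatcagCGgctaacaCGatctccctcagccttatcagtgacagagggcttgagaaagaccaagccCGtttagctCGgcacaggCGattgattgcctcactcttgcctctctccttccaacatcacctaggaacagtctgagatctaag
Uros shared: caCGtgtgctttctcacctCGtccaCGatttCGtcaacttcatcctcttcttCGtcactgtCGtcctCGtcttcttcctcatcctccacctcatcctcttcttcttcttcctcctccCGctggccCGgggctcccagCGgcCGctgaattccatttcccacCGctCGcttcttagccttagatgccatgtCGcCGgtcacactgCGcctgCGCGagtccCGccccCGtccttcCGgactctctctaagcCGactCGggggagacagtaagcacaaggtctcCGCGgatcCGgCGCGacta
Mob2 second, liver-only: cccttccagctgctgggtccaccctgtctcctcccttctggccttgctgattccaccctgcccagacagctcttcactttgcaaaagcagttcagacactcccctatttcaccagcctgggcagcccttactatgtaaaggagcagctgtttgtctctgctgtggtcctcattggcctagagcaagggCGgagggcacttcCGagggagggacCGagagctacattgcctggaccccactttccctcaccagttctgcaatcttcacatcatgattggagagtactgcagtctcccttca
Mob2 shared: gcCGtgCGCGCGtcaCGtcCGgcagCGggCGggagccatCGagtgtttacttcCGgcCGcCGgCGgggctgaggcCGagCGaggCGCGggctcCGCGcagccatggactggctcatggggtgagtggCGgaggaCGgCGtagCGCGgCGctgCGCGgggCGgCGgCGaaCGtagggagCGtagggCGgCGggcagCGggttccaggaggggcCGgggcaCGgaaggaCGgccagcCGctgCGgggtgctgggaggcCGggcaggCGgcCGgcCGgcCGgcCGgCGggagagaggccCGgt
Stat5b second, yolk-sac-only: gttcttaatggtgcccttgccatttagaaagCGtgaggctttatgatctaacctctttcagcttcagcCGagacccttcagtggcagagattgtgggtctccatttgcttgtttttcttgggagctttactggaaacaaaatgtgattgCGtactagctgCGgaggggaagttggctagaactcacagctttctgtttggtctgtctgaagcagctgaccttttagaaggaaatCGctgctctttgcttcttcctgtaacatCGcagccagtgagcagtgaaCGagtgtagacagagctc
Stat5b shared: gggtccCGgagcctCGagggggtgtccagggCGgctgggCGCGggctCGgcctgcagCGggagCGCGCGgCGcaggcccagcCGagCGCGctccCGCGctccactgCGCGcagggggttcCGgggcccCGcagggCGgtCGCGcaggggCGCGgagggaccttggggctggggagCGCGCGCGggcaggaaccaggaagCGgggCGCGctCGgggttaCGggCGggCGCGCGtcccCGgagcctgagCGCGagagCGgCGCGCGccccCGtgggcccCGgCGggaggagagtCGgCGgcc
Epb41 second, yolk-sac-only: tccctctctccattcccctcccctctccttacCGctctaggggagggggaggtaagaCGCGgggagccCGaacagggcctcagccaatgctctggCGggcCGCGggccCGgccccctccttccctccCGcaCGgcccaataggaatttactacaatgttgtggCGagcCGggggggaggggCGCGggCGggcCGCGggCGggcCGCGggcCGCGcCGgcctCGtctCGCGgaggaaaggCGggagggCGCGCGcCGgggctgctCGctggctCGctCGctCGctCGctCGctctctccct
Epb41 shared: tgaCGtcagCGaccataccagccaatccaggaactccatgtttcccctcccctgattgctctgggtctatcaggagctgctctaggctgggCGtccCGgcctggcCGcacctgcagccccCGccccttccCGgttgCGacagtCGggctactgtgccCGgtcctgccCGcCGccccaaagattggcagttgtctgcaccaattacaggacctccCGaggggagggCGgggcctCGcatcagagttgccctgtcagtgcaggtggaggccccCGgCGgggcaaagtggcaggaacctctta

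The second window of Uros held 5 CpG and its shared window 28. For Mob2 the numbers were 3 and 48, and for Stat5b 7 and 50. Epb41 went the other way, with 37 CpG in the second window and 17 in the shared one, as did Prox1, not printed, with 25 and 14. Over all members with both windows, the second held fewer CpG than the shared one in 25 of 28 liver-only cases and in 69 of 89 yolk-sac-only cases, and more in 3 and 18. The observed over expected CpG ratio, which corrects for base content, was 0.298 against 1.16 for Uros, 0.134 against 1.10 for Mob2, 0.421 against 1.01 for Stat5b and 0.901 against 0.535 for Epb41. Motifs were searched on both strands, so that a match can be the reverse complement of the printed letters. TGATAA matched once in the second window of Uros, at position -68 from the start, where the printed strand reads TTATCA. It matched in none of the other 7 windows printed, and in 9.05% of 32851 RefSeq promoter windows. GGGCGG, found in 35.7% of all windows, matched in each of the 4 shared windows. There were 3 matches in Mob2, Stat5b and Epb41 and 1 in Uros. In the second windows GGGCGG matched once in Mob2 and 2 times in Epb41.

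The yolk sac lists were longer, with 50525 and 43055 peaks against 24863 and 24333 in liver, and this difference moves with every count of members. Liver-only calls made up 6.62% of all merged regions and 2.98% of promoter regions, and yolk-sac-only calls 33.0% and 13.3%. Of the genes with a shared promoter, 1.91% had a liver-only and 6.64% a yolk-sac-only second region. When each list was cut to its 24333 highest-scoring peaks, 352 liver-only and 286 yolk-sac-only second regions were found, so that the order of the tissues turned. Of the 335 genes with a liver-only region after this cut, 188 had one in the full lists, against 253 of 257 in yolk sac. A region that is liver-only after the cut, here and below, can have a lower-scoring yolk sac peak in the full lists. The order of the 2 counts thus depends on the length of the lists. Between replicates, 91 second regions were called in liver 1 alone and 77 in liver 2 alone, against 241 in both. In yolk sac 291 were called in replicate 1 alone and 115 in replicate 2 alone, against 908 in both. A further 42 were called in exactly 1 library of each tissue. Larger numbers missed being shared by 1 library. In both yolk sac lists and 1 liver list, 112 were called with liver 1 and 143 with liver 2. In both liver lists and 1 yolk sac list, 40 were called with yolk sac 1 and 17 with yolk sac 2. With 2 libraries against 2, the smallest p-value of an exact two-sided permutation test is 0.333, so that this test could pass no usual threshold, and none was run.

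Markers of the cell types were called as follows, counting a gene when a peak of the list itself lay within 500 bp of one of its starts. All 8 erythroid markers had a peak in both liver lists and 2 of 8, Epor among them, in both yolk sac lists, with none at Gata1, Klf1, Alas2, Slc4a1, Hbb-bt and Rhag in yolk sac. All 10 markers of yolk sac endoderm had a peak in both yolk sac lists, against 8 and 6 in liver, where Amn and Cubn had none. Of 10 hepatic markers, 8 and 7 were called in liver and 7 and 7 in yolk sac. Cps1 and C3 had a peak in both liver lists and in neither yolk sac list. Fgb had a peak in both yolk sac lists but in neither liver list, and Serpina1a had none in any list. Counted by merged regions, as for the members, 3 erythroid markers were called in both yolk sac lists and 8 hepatic markers in both liver lists. Of 10 mesenchymal markers, 7 and 9 were called in liver and all in yolk sac. Endothelial markers were called 6 and 6 times of 8 in liver and all 8 in yolk sac, and macrophage markers 5 and 5 times of 8 in liver and 8 and 6 in yolk sac. In whole tissue, a promoter used in fewer cells and one used less in each cell cannot be told apart. The part of cell makeup in the calls below was not tested.

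Liver-only second regions lay in several genes of red cell biology. Uros, the heme synthesis enzyme uroporphyrinogen III synthase, had 2 of them. One (chr7:133700751-133703252) lay 7250 bp downstream of the shared region at the start of Uros-210, a transcript with the same start codon, and reached the 76.3rd percentile of scores in liver 1 and the 55.6th in liver 2. The other (chr7:133697851-133699002) lay 10825 bp downstream at a non-coding transcript, Uros-207, with percentiles of 65.4 and 68.7. Neither had a peak in either yolk sac list, while the shared region of Uros was called in all 4. A percentile here is the rank of a peak's deposited score within its own list, from 0 for the lowest to 100 for the highest. An erythroid promoter of Uros downstream of the housekeeping one is known in mouse and human. Fech, which inserts iron into the porphyrin ring, had a liver-only region 2675 bp upstream of its shared promoter, at percentiles of 69.8 and 28.2. The call at Fech was lost with a 250 bp window, with the higher-scoring 50% of each list, with starts of transcript support level 1 or 2, and when a second region had to lie at least 2 kb from every shared one. Slc25a38, the mitochondrial glycine carrier that feeds heme synthesis, had one 4875 bp downstream at percentiles of 60.1 and 53.1. The call at Slc25a38 was lost with starts of support level 1 or 2, and that at Uros with the higher-scoring 50% of each list.

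Hk1 encodes hexokinase 1, the main glucose-phosphorylating enzyme of red cells. Its liver-only region (chr10:62326301-62328202) lay in the first intron, 13600 bp downstream of the shared region, at the start of Hk1-212, a transcript with another start codon. It scored higher than the shared promoter in both liver lists, at percentiles of 90.9 and 95.3 against 65.6 and 57.1. An alternative first exon of hexokinase 1 used in red cells is known, and whether Hk1-212 carries it was not checked. The call at Hk1 was lost when only starts with transcript support level 1 or 2, the best-evidenced models, were used. Lmo2, an adaptor protein of the erythroid transcription complex, had a liver-only region (chr2:103956451-103962652) 11400 bp upstream at Lmo2-208, at percentiles of 98.3 and 87.6. This was close to the shared promoter of Lmo2, at 98.0 and 89.6. Its CpG ratio of 0.884 over the first 200 transcript bases set it apart from the CpG-poor members described below. The other erythroid regulators with a liver-only region were Bcl11a, a repressor of globin genes, at percentiles of 26.8 and 12.2, and Zfpm1, a partner of GATA1, at 14.1 and 27.7. Both of these ranked low in their lists. The call at Bcl11a was lost with lists of equal length, with the higher-scoring 50% and with at least 2 kb from every shared region. The call at Zfpm1 was lost with a 250 bp window, the higher-scoring 50%, protein-coding starts, and starts of support level 1 or 2.

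**Figure D1:**
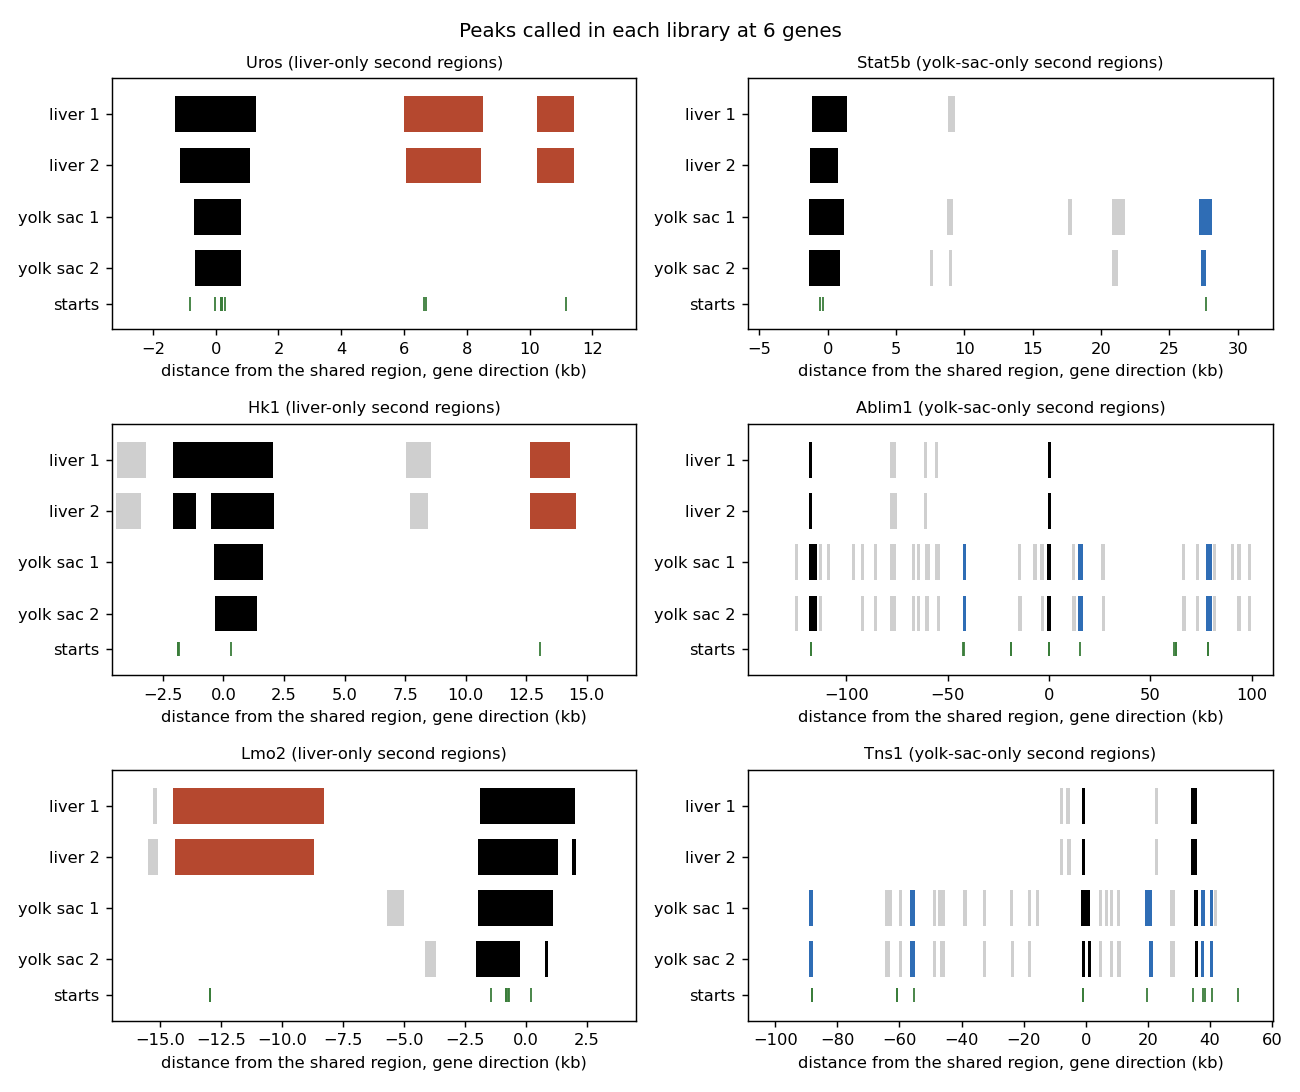
Peaks by library at 6 genes, against the distance in kb from the midpoint of the shared region, with the gene running to the right. Black boxes are peaks of shared promoter regions, coloured boxes peaks of second regions, grey boxes other peaks, and green ticks annotated starts of the gene. Uros, Hk1 and Lmo2 have coloured boxes in both liver rows only, and Stat5b, Ablim1 and Tns1 in both yolk sac rows only, as the rule requires.

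Genes of late red cell maturation, when organelles and unneeded proteins are removed, formed a further group. Of 13 with a shared promoter, 4 had a liver-only region, or 30.8% against 1.91% of all genes. They were Bnip3l, a receptor for the removal of mitochondria, Ubac1, a subunit of a ubiquitin ligase, Ube2o, which ubiquitinates proteins in reticulocytes, and Xpo7, a nuclear export receptor. Ubac1 stood highest, at percentiles of 96.8 and 93.1, against 94.0 and 76.9 for its shared promoter. Bnip3l was uneven, at 96.9 in liver 1 and 40.2 in liver 2, and Ube2o and Xpo7 lay between 49.2 and 59.5. In Ubac1, Bnip3l and Ube2o the start belonged to a transcript annotated as non-coding. With starts of protein-coding transcripts only, 1 of the 4 genes kept its call, Xpo7. In heme synthesis 2 of 8 genes with a shared promoter had a liver-only region, and among erythroid regulators 3 of 23. None of 15 genes of the red cell membrane and 1 of 22 genes of iron and heme transport did. With lists of equal length both of these lists had 3 genes with a liver-only region, heme synthesis 3, the regulators 4 and the maturation genes 5. Counted per annotated start away from the shared promoter, 14.9% of 47 starts of the maturation genes lay at liver-only regions, against 1.52% of all 23646 such starts. In heme synthesis 3 of 20 starts did, and among the regulators 11.1% of 36. These lists and genes are few, and the shares rest on 3 to 7 starts each. The gene lists were chosen with earlier results of these data known. Their shares, here and below, are therefore a description and not independent support.

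The highest-ranking liver-only members were not confined to those lists. Rab43, a small GTPase of vesicle traffic, led with percentiles of 96.4 and 96.6 at a non-coding transcript 19375 bp downstream. Ubp1, a transcription factor of the CP2 family, followed at 95.1 and 94.6. Acsl5, which activates fatty acids, had 95.5 and 94.6. Pacsin2, a membrane-bending protein, had 97.7 and 93.8 at a coding start 9275 bp downstream. March8, a ubiquitin ligase that removes transferrin receptor and other proteins from membranes, had 93.0 and 93.7. Gcnt1, an enzyme of O-glycan branching, had 92.4 and 98.7, and Mob2, a regulator of NDR kinases, 91.0 and 94.99. All 3 of these regions began transcripts with the start codon of the shared promoter. Nprl3, a subunit of the GATOR1 complex whose introns are known to hold enhancers of the neighbouring alpha-globin genes, had 92.1 and 92.7 at a non-coding transcript in a later intron. With starts of support level 1 or 2 only, the calls at Acsl5, Pacsin2, March8, Gcnt1 and Rab43 were lost. With starts of protein-coding transcripts only, those at Rab43, Ubp1 and Nprl3 were lost. Rab43 also lost its call with a 250 bp window, and Ubp1 when regions near a start of another gene were left out. For Nprl3 the annotated start and a distal element cannot be told apart from these lists.

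In yolk sac, the list with the largest share of genes with a second region was that of the actin and spectrin cytoskeleton. Of 37 with a shared promoter, 15 had a yolk-sac-only second region, or 40.5% against 6.64% of all genes. Among them were Ablim1, Ank3, Dst, Epb41l2, Lpp, Macf1, Mical2, Palld, Sorbs3, Svil, Synpo, Tns1 and Tns3. In liver the list had 1, Cald1. These are long genes with many annotated starts, a median of 122306 bp and 10 starts against 24487 bp and 5 over all genes with a shared promoter. Per annotated start away from the shared promoter, 44 of 243 lay at yolk-sac-only regions, or 18.1%, against 5.87% of all such starts. By that measure the endoderm regulators stood higher, at 26.9% (7 of 26), and among genes of epithelial uptake and junctions 9 of 50 starts lay at such regions. With lists of equal length 9 of the 15 genes kept their call, with Macf1, Palld, Tns3 and Sorbs3 among those that lost it, while 3 genes of the list had a liver-only region. With starts of protein-coding transcripts only, 12 remained in yolk sac.

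Ablim1, an actin-binding LIM protein, had 3 yolk-sac-only regions. The strongest (chr19:57180501-57182902) lay 15800 bp downstream of the nearest shared region at Ablim1-216 and reached percentiles of 99.3 and 97.4, the highest pair of any yolk-sac-only member. The other two lay 41575 bp upstream, at 74.95 and 66.9, and 79000 bp downstream, at 55.9 and 45.4. All 3 began coding transcripts with another start codon than the shared one. Tns1, which links actin to focal adhesions, had 5, more than any other gene. They lay between 88525 bp upstream and 5600 bp downstream of the nearest shared region, and their percentiles ran from 94.5 and 92.5 at Tns1-217 to 16.3 and 5.58 at Tns1-203. The region at Tns1-217 also lay within the window of a start of Rufy4, so that its reads may belong to either gene. Dst, the giant linker protein dystonin, had 4 over both sides, led by Dst-219 at 93.9 and 82.1. Epb41l2, a relative of protein 4.1, had a region 72925 bp downstream at 89.4 and 90.8, above its shared promoter at 59.0 and 74.3. Mical2, which disassembles actin by oxidation, had one 148025 bp downstream at 83.4 and 85.9. Lpp, a focal adhesion protein, differed between replicates, with 94.9 and 50.4.

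Red cell genes also had second regions in yolk sac. Epb41, which encodes protein 4.1 of the red cell skeleton and is known for promoters that give proteins of different length, had 2. The one printed above (chr4:132048101-132049952, Epb41-203) lay 26875 bp downstream of the shared region with the same start codon, at percentiles of 71.9 and 57.6. The other lay 138750 bp downstream at a different start codon, at 25.8 and 9.08. Dmtn, the actin-bundling protein dematin, had one 17475 bp upstream at 78.5 and 41.1. Stat5b, a signal transducer of cytokine receptors, had the region printed above at Stat5b-202 (chr11:100822051-100823002), 27650 bp downstream with the same start codon. Its percentiles of 90.8 in yolk sac 1 and 25.8 in yolk sac 2 were far apart, and the call at Stat5b was lost with lists of equal length. Sox6, a regulator of globin genes also used in other tissues, had one region 5075 bp upstream at 89.6 and 76.4 and one 171475 bp downstream at 32.4 and 22.3. The upstream region of Sox6 also lay within the window of a start of 1110004F10Rik. Tfr2, a sensor of iron-loaded transferrin, had 70.7 and 7.81, and Rnf123, a ubiquitin ligase subunit that partners with Ubac1, had 2 regions, at 31.5 and 46.6 and at 28.7 and 82.5. Calls at Dmtn, Tfr2 and Rnf123 were lost with lists of equal length.

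Endoderm regulators had yolk-sac-only regions at 4 of 24 genes with a shared promoter, or 16.7% against 6.64% of all genes. Ppard, a nuclear receptor for fatty acids, was highest, at percentiles of 72.3 and 75.3 for a region 39375 bp downstream with the same start codon. Ppara, its relative that drives fatty acid oxidation, had 54.0 and 51.1 at a non-coding transcript, and Nr1h4, the bile acid receptor, had 38.2 and 42.2 at a coding start 27225 bp downstream. Prox1, a homeobox factor of liver and lymphatic vessels, had a region 1475 bp upstream at 47.0 and 32.4, which merged with the shared region when peaks within 500 bp were joined. Calls at Nr1h4 and Prox1 were also lost with lists of equal length, which left 2 endoderm regulators with a yolk-sac-only region and 2 with a liver-only one. Of 18 genes of epithelial uptake and junctions, 3 had a yolk-sac-only region, namely Slc2a3, a glucose transporter, at 67.6 and 68.2, Tjp3, a tight junction protein, at 34.2 and 20.0, and Ezr, the membrane linker ezrin, at 2.08 and 6.25. The last is among the lowest-scoring peaks of its lists, and with lists of equal length Tjp3 and Ezr lost their calls. No gene of either group had a liver-only region in the full lists.

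Among growth factor genes 3 of 30 had a yolk-sac-only region, near the 6.64% of all genes. Fgfr1, a receptor for fibroblast growth factors, had 2, one at a non-coding transcript 47425 bp downstream at percentiles of 90.7 and 84.1 and one at a coding start 13350 bp downstream at 47.8 and 51.8. Met, the receptor for hepatocyte growth factor, had 51.3 and 64.1. Fgfr2, a second fibroblast growth factor receptor, had 17.8 and 0.664, near the floor of the yolk sac 2 list. With lists of equal length Met and Fgfr2 lost their calls. Of 29 genes of matrix and adhesion, 5 had one in yolk sac, or 17.2%, and per annotated start the share was 7.41% against 5.87% of all starts. Col18a1, a basement membrane collagen known for promoters that give long and short proteins, had a region 23150 bp downstream at Col18a1-204, with another start codon, at 82.5 and 83.8, a call that was lost when peaks within 500 bp were joined. Ltbp1, which binds latent TGF-beta and is known for a long and a short form, had 87.7 and 61.6 at Ltbp1-202, 174550 bp downstream. Col1a2, Itgb4 and Lamb1, a fibrillar collagen, an integrin and a laminin chain, had second-region percentiles from 19.2 to 66.3, each at a non-coding transcript, and lost their calls with lists of equal length. In liver the list had Agrn, the proteoglycan agrin, at 13.9 and 10.6, a call lost in the same way.

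Of 23 imprinted genes with a shared promoter, 3 had a yolk-sac-only region and none a liver-only one. Per annotated start the yolk-sac-only share was 5.26%, near the 5.87% of all starts, and with lists of equal length 1 gene had a yolk-sac-only and 2 a liver-only region. Mest, an imprinted gene of the mesoderm expressed from the paternal copy, had one (chr6:30723101-30724702) 14450 bp upstream at Mest-201 with another start codon, at percentiles of 92.8 and 99.7. The shared promoter of Mest lay at 99.8 and 97.7 in yolk sac and at 47.6 and 30.9 in liver, and with the higher-scoring 50% of each list the call at Mest was lost. Gnas, which has several promoters of different imprinting, had a region at a retained-intron transcript, 14225 bp downstream of the nearest shared region, at 57.5 and 37.5. Begain, next to the Dlk1-Dio3 cluster, had one in its first intron, 14350 bp downstream, at 45.9 and 33.3. The lists do not resolve the parental copies. Among 34 genes with a shared promoter that are textbook cases of alternative promoters, 8 had a yolk-sac-only region, or 23.5% against 6.64% of all genes, and 3 a liver-only one, or 8.82% against 1.91%. With lists of equal length 6 had a yolk-sac-only and 7 a liver-only region, so that the order turned. Besides genes already described, they were Acacb, an acetyl-CoA carboxylase, at 87.8 and 69.9 in a region 29700 bp upstream, and Vdr, the vitamin D receptor, at 55.9 and 53.9. Fgf1, a fibroblast growth factor, had 2 regions, of which the upstream one reached 93.4 and 93.7. In liver they included Pcx, the gluconeogenic enzyme pyruvate carboxylase, at 75.9 and 60.4.

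**Figure D2:**
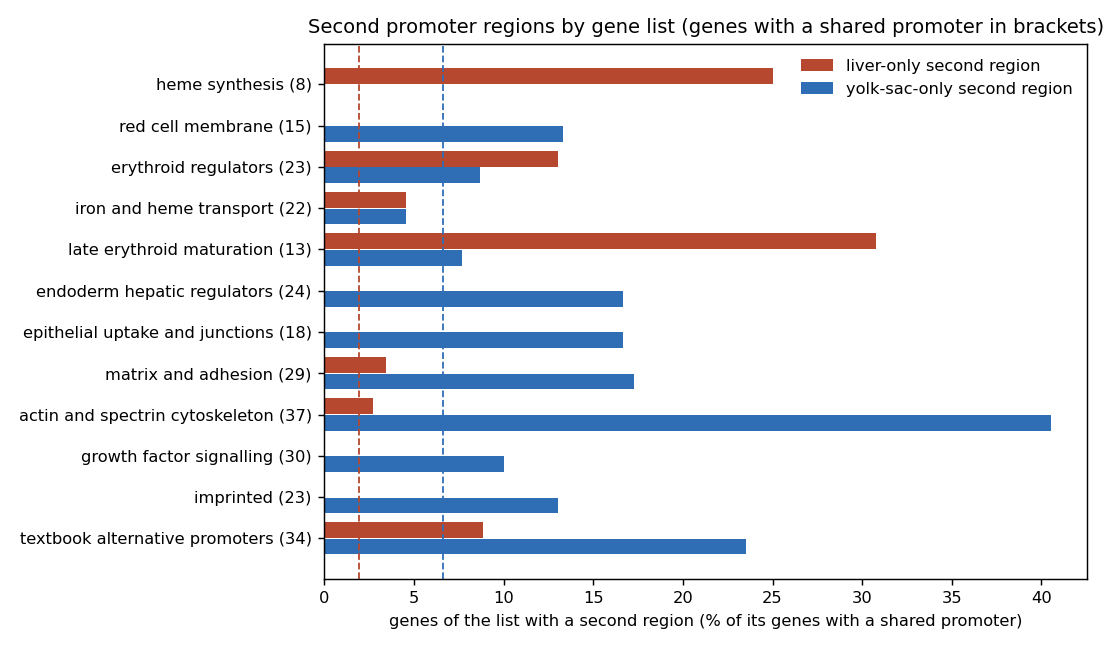
Percentage of each list's genes with a shared promoter that had a liver-only (red) or yolk-sac-only (blue) second region, with the number of genes with a shared promoter in brackets. Dashed lines mark the same percentage over all genes, 1.91% and 6.64%, and the longest bar is the 40.5% of cytoskeleton genes in yolk sac.

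The leading yolk-sac-only members outside these lists were of many kinds. Txnrd2, the mitochondrial thioredoxin reductase, had 97.0 and 98.9. Dab2ip, a Ras-inactivating protein, had 97.7 and 96.6 in a coding start 23450 bp upstream. Dazap1, an RNA-binding protein, had 97.6 and 96.5, Etl4 96.1 and 97.0, and Usp49, a deubiquitinase, 96.8 and 96.1. Atxn1, Bcas3, Fyn and Dhtkd1 followed with percentiles between 95.4 and 99.6, each at a non-coding transcript. In Fyn, a Src-family kinase, the shared promoter stood at 51.2 and 60.3 in yolk sac, against 99.2 and 95.8 for the second region. The call at Fyn was lost with lists of equal length. With starts of protein-coding transcripts only, those at Fyn, Txnrd2, Dazap1, Atxn1, Bcas3 and Dhtkd1 were lost. Starts of support level 1 or 2 lost Fyn, Txnrd2, Atxn1 and Dhtkd1, and the higher-scoring 50% of each list Txnrd2 and Dab2ip. Dazap1 was also lost when regions near a start of another gene were left out. Among the members farthest from the shared promoter, Pde4d had a region 811200 bp upstream and Etl4 one 610525 bp upstream. In liver the farthest were Syne1 at 355700 bp, Ldlrad4 at 294000 bp and Cachd1 at 217600 bp.

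Second regions of both tissues occurred at 28 genes, or 0.235% of those with a shared promoter. They were 12.3% of the genes with a liver-only region and 3.54% of those with a yolk-sac-only region. These genes had a median of 10 annotated starts and 81589 bp. Ranked by the lowest percentile over all their members, St3gal1, a sialyltransferase, led, with a liver-only region 60600 bp downstream at 73.5 and 90.6 and a yolk-sac-only region 47600 bp downstream at 90.01 and 69.3. Prkag2, a subunit of AMP-activated kinase, had a liver-only region downstream at 79.3 and 56.2 and a yolk-sac-only region at a coding start 87400 bp upstream of the nearest shared region, at 57.4 and 43.9. Tbcd, a tubulin chaperone, had 2 of each. Further genes among the leading 10 were Txnrd2, Iqsec1, Rgs12, Pla2g12a, Sgms1 and Fggy. With a 1000 bp window 44 genes had both, without yolk sac replicate 2 there were 47, and with lists of equal length 14.

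Most second regions lay downstream of the nearest shared region. In liver 212 of 241 did (88.0%), and in yolk sac 729 of 908 (80.3%). The upstream share was 12.0% in liver (95% Wilson interval 8.51% to 16.7%) and 19.7% in yolk sac (17.3% to 22.4%), intervals that cover counting error only. Regions upstream of every shared region of their gene were fewer, 9.96% in liver and 15.7% in yolk sac. Between shared regions of their gene lay 10 liver-only and 57 yolk-sac-only regions. All these shares count regions. Counted by annotated starts, 13.1% of 360 starts at liver-only regions and 25.3% of 1389 at yolk-sac-only regions lay upstream. At regions with other call patterns 25.5% of 1290 starts did. Over all genes with a shared promoter, 23646 annotated starts lay away from shared promoters, 8.65% of them upstream. Among the 20607 of these starts with no peak in any list 6.40% lay upstream. Upstream starts of coding transcripts were at yolk-sac-only regions in 18.5% of 1289 cases and downstream ones in 7.94% of 5829. At liver-only regions the shares were 2.33% and 1.97%. With lists of equal length, which hold partly other regions, the upstream share was 21.02% in liver and 25.9% in yolk sac. Relative to the gene model of the shared start, 53.5% of liver-only and 53.0% of yolk-sac-only regions lay in a later intron, and 19.5% and 21.3% in the first intron. Downstream of the end of that model lay 5 liver-only and 13 yolk-sac-only regions.

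**Figure D3:**
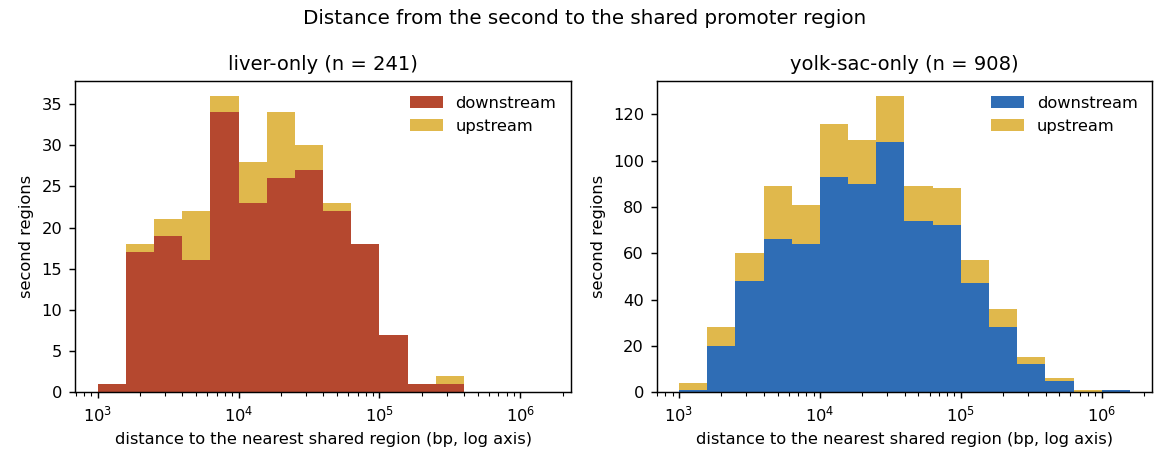
Number of second regions by the distance between the midpoints of the second and the nearest shared region, on a log axis in bp, with regions upstream of the shared promoter in yellow. The medians are 14125 bp in liver and 21000 bp in yolk sac, and upstream regions are the smaller part in both panels.

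The median distance between the second and the nearest shared region was 14125 bp in liver (quartiles 6075 and 34425 bp) and 21000 bp in yolk sac (8169 and 55806 bp). Of the liver-only regions 98 lay within 10 kb, or 40.7%, and of the yolk-sac-only regions 262, or 28.9%. A peak of the other tissue lay within 1 kb of 25 liver-only regions and of 32 yolk-sac-only ones, so that at these the tissues differ by little in position. Another region called in the same tissue only lay within 50 kb of 56.4% of liver-only and 83.7% of yolk-sac-only members. Over the shared promoter regions a liver-only region lay that near to 29.6% and a yolk-sac-only region to 68.6%. Genes with a second region had a median of 46704 bp and 7 annotated starts in liver and 54875 bp and 7 starts in yolk sac. Over all genes with a shared promoter the medians were 24487 bp and 5 starts. The rule asks for a second promoter region, so that genes with few or close starts can hardly be members. This difference is therefore partly set by the rule.

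The name promoter holds for the members as far as annotated starts go, and less so for coding starts. Of the liver-only regions 104 lay at the start of a protein-coding transcript, or 43.2%, and of the yolk-sac-only regions 489, or 53.9%. Over all promoter regions called in all 4 libraries the share was 97.6%. The remaining 137 and 419 members lay at starts of transcripts annotated only as processed transcripts, retained introns or targets of nonsense-mediated decay. Among annotated starts with no peak at all, 27.6% were coding. Where the second region had a coding transcript that could be compared, it shared the start codon with the shared promoter in 43 liver and 211 yolk sac cases and had another in 59 and 248. The annotated start lay inside the region itself in 68.0% of liver-only and 76.1% of yolk-sac-only members. A start of another gene of any kind lay within the window of 10 and 58 members, and one of another coding gene in 1 and 18. Among named members, regions of Ubp1, Ube2o, Dab2ip, Dazap1, Dst and Epb41 lay within the window of a start of a predicted gene, and those of Prox1, Rgs12 and Rnf123 within that of Prox1os, Mir3097 and Amigo3. At the 500 bp limit, the farthest members inside were Ankrd40 at 498 bp, Pold2 at 489 bp and Pgap3 at 479 bp in liver, and Coro2b at 499 bp, Sdad1 at 492 bp and Mical3 at 491 bp in yolk sac. Just outside were Mta2 at 501 bp, Pth1r at 504 bp and Tmem120b at 513 bp, and Sipa1l1 at 502 bp, Gcat at 503 bp and Arhgef2 at 509 bp.

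Second regions ranked below the shared promoters of the same genes, a difference that the rule can set, since shared regions had to be called in every list. Liver-only regions had median percentiles of 45.1 in liver 1 and 41.4 in liver 2, against 71.3 and 71.5 for the nearest shared regions. Yolk-sac-only regions had 48.0 and 41.2 against 71.6 and 71.5. The second region scored above its shared promoter in both libraries in 44 liver cases (18.3%) and 142 yolk sac cases (15.6%). Members at or above the 90th percentile in both lists numbered 12 and 30. Second regions were also narrower, with median widths of 1002 and 902 bp in liver against 1902 and 1752 bp, and of 952 and 802 bp in yolk sac against 1902 and 1752 bp. The other promoter regions called in 1 tissue only, which are not members, were close to the members in liver, with percentiles of 39.7 and 41.7 and widths of 1002 and 852 bp. In yolk sac they had percentiles of 57.6 and 48.5 and widths of 1002 and 852 bp. A score was compared only within its own list.

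**Figure D4:**
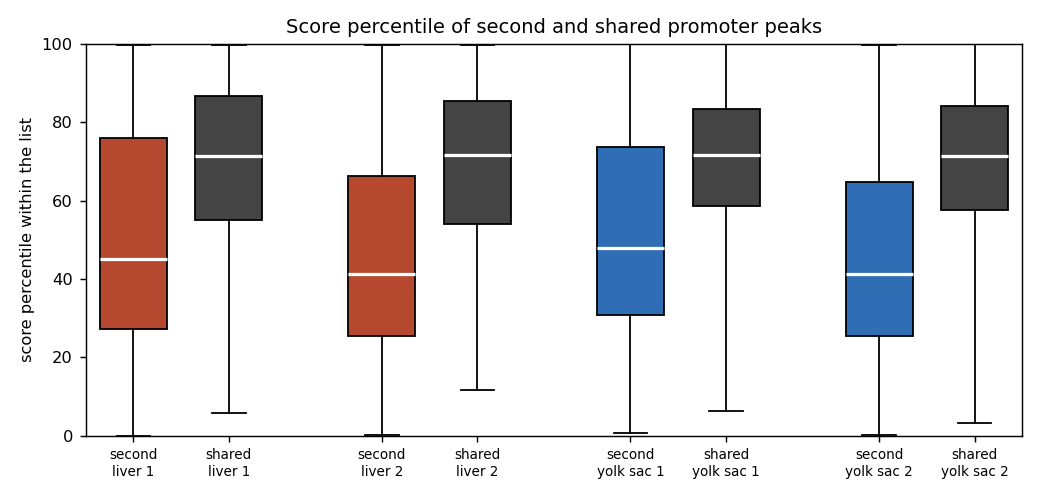
Score percentile within each list for second regions (coloured) and for the nearest shared promoter regions of the same genes (grey). Boxes span the quartiles with the median in white, and whiskers reach the lowest and highest value. Medians of second regions lie from 41.2 to 48.0 and those of shared regions from 71.3 to 71.6.

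Base composition also differed between second and shared promoters. Over the first 200 bases of the transcripts that start there, the median CpG ratio was 0.336 for liver-only and 0.336 for yolk-sac-only members, against 0.716 and 0.718 for the shared promoters of the same genes and 0.761 for all shared promoters. A ratio of 0.6 or more was reached by 33 liver-only regions, or 13.7% (9.92% to 18.6%), and by 134 yolk-sac-only regions, or 14.8% (12.6% to 17.2%). The share was 65.4% and 64.5% in the shared promoters of those genes. Promoter regions called in 1 tissue that were not members had medians of 0.329 in liver and 0.472 in yolk sac, with 17.5% and 37.3% at 0.6 or more. The intervals of the shares for these others were 13.2% to 22.8% in liver and 34.6% to 40.0% in yolk sac. All these intervals cover counting error over regions only, and no test was run on the difference. Of these other regions 90.8% and 89.3% lay at coding starts, more than among the members. Members at coding starts had medians of 0.355 in liver and 0.376 in yolk sac. With the higher-scoring 50% of each list, where 48 of 75 liver and 168 of 315 yolk sac genes were among those described here, the share was 19.5% in liver and 26.9% in yolk sac.

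**Figure D5:**
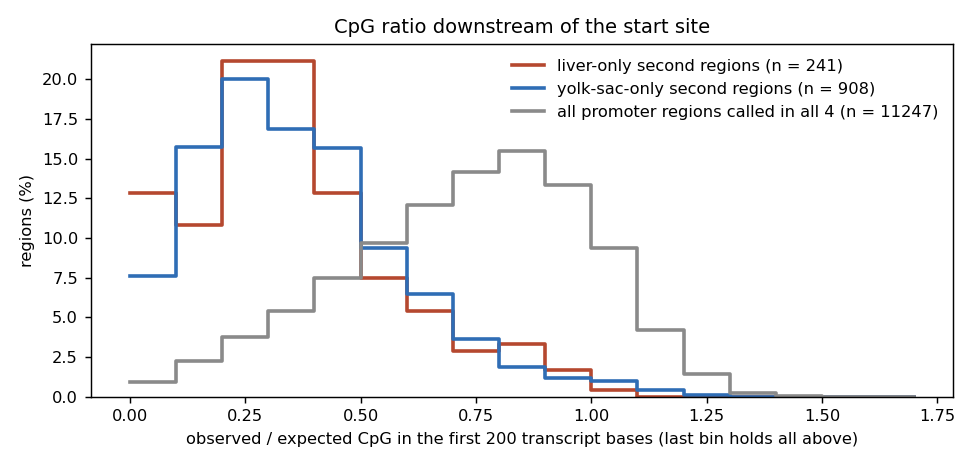
Observed over expected CpG ratio in the first 200 bases of the transcripts at each region, as the percentage of regions in bins of 0.1. Liver-only and yolk-sac-only second regions have medians of 0.336, and the 11247 promoter regions called in all 4 libraries (grey) a median of 0.761.

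The shared promoters of genes with a second region were compared between the tissues by the width of their peaks. The rule sets no width, but peak edges decide which peaks merge and which regions count as promoters. Width is therefore not independent of the rule, and the shares are given as a description. Over all 11247 shared promoter regions, peaks were wider in both liver lists than in both yolk sac lists at 20.2%, and wider in both yolk sac lists at 38.4%. At genes with a liver-only second region the shares were 36.2% (93 of 257) and 31.1% (80). At genes with a yolk-sac-only second region they were 18.6% (168 of 905) and 49.3% (446). The median difference, liver minus yolk sac, was -75 bp over all, 50 bp at genes with a liver-only and -225 bp at genes with a yolk-sac-only second region. Median widths at the genes with a liver-only region were 1852 and 1702 bp in liver and 1702 and 1552 bp in yolk sac, so that the ranges of the tissues met. At the genes with a yolk-sac-only region they were 1552 and 1502 bp in liver and 1902 and 1752 bp in yolk sac, which did not overlap. By the rank of the score the sets differed less. A rank higher in both liver lists occurred at 36.4% of all shared regions, at 36.6% for genes with a liver-only and at 34.7% for genes with a yolk-sac-only second region. A rank higher in both yolk sac lists occurred at 22.7%, 24.1% and 25.7%.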

How the data were processed

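Each of the 4 PRO-seq libraries had 1 list of dREG peaks with a score between 0.80 and 1.45, a value without a unit that the authors deposited. Per the submitters' processing notes, the build was mm10, and Bowtie2 and bedtools were used. The dREG version and filters are not given in the sources used here. Lists were made per library. The score served only to rank and filter within a list. Scripts used Python 3.11.15, numpy 2.4.6 and pandas 2.3.3, and starts came from GENCODE release 21 (GRCm38), with positions 1-based. Distances run between region midpoints. The CpG ratio was taken over the first 200 transcript bases, since only 15.8% of liver-only and 15.9% of yolk-sac-only members match a RefSeq promoter window (GRCm38.p6) and no genome sequence was used here. The code for the member rule was checked on simulated lists. It returned 150 of 150 planted second regions and 0 of 150 decoys. The decoys lacked a shared peak or had a second peak in 1 library only, so that they fail the rule by definition. The check thus covers the code and not how the rule performs on these lists.

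Members and gene lists were chosen with earlier results of these data known. Genes were named by 5 rules: all list genes with a member, the 10 highest-ranking members per tissue by the lower of their percentiles (skipping predicted genes, Rik clones and receptor families), the 10 leading genes with both kinds, the 3 farthest members per tissue, and the 3 nearest the 500 bp limit on each side. Alternatives were windows of 250 and 1000 bp, joined peaks, shorter lists, coding or well-supported starts and greater separation. Further ones left out regions near a start of another gene, or each library in turn. Gene list counts with lists of equal length and with coding starts were added after seeing the data. Some items that these rules name are not reported here.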

Additional observations from a re-analysis of the deposited data

How the results depend on the processing

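With the higher-scoring 50% of each list, 77 liver-only and 346 yolk-sac-only second regions were found, with 19.5% and 28.9% upstream, 19.5% and 26.9% at a CpG ratio of 0.6 or more, and 4 genes with both kinds. With every list cut to 24333 peaks by score there were 352 and 286, with 21.02% and 25.9% upstream, 20.5% and 18.5% at that CpG ratio, and 14 genes with both. With starts of protein-coding transcripts only there were 102 and 459, with 17.6% and 26.6% upstream, 20.6% and 17.9% at that CpG ratio, and 7 genes with both. With starts of support level 1 or 2 there were 102 and 409, and 6 genes with both. A window of 1000 bp gave 44 genes with both. Leaving out each library in turn gave 262 to 335 liver-only and 1016 to 1194 yolk-sac-only regions, upstream shares of 13.1% to 15.2% and 18.9% to 23.6%, CpG shares of 12.5% to 15.9% and 14.6% to 18.5%, and 37 to 47 genes with both. The highest yolk sac shares, 23.6% and 18.5%, came without liver replicate 2, and the 47 genes without yolk sac replicate 2. Of 103 named pairs of gene and tissue, 35 lost their call with lists of equal length, 65 with the higher-scoring 50%, 45 with protein-coding starts and 48 with support level 1 or 2. The cause was not tested beyond the construction of these settings, which use fewer peaks or fewer starts. At most 14 were lost under any of the others apart from leaving out a library. Pairs that kept the call under all of these settings numbered 11: Lmo2 and Mob2 in liver, and Ablim1, Epb41, Epb41l2, Etl4, Fgfr1, Lpp, Mical2, Pde4d and Usp49 in yolk sac. A pair counted as kept when any region of the gene was called in that tissue. At genes with several second regions, such as Epb41, the region kept can thus differ between settings. The higher-scoring 50% kept 21.1% of the genes with a liver-only and 21.3% of those with a yolk-sac-only region.

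Motif shares over the members and a sequence window of 500 bp on each side were not run, since a promoter sequence was at hand for fewer than 80% of members. No paired analysis was possible because the results come from no test. Peaks without read counts give no depth, so a missing call is not shown to be absent initiation. A peak near an annotated start inside a gene can also be a distal element, which these lists cannot tell apart.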
